A study of Mus musculus with 4 samples.

Results

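The Snail and Twist transcription factors and their E-protein partners were described here in terminal end buds, the club-shaped tips from which mammary ducts grow at puberty, with and without deletion of the zinc finger repressor gene Ovol2. The group was defined by name and comprised Snai1, Snai2, Snai3, Twist1, Twist2, Tcf3, Tcf4 and Tcf12. All 8 genes were on the array among 19938 genes with a symbol of their own, each through 1 probe set. Whole-transcript Affymetrix arrays were hybridised with RNA of physically isolated end buds of female C57/BL6 mice, 2 arrays per genotype. The control pools held 2 mice per array with the genotype Ovol2flox/+ in the sample characteristics, while the protocol also admits Ovol2flox/+;K14-Cre. The knockout pools held 3 mice per array with the genotype Ovol2flox/-;K14-Cre, in which Cre is driven by the keratin 14 promoter of basal epithelium and skin. All mice thus carried 1 floxed allele, and by these genotypes the null allele was limited to the knockout pools. Mice per pool and genotype cannot be told apart. The age is 4.5 weeks in the sample labels and 24 to 25 days in the series text.

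Snail proteins are zinc finger repressors that bind E-box sequences in the promoters of epithelial genes such as the E-cadherin gene Cdh1. Twist proteins are basic helix-loop-helix (bHLH) factors that bind E-boxes as dimers, often with an E protein (the products of Tcf3, Tcf4 and Tcf12), and Id proteins take up E proteins in dimers that cannot bind DNA. Both families are known as drivers of the epithelial-mesenchymal transition (EMT), and in the mammary gland Snai2 is known as a gene of basal cells. Tcf3 and Tcf4 here are the E-protein genes (Entrez genes 21423 and 21413), not the Wnt pathway genes Tcf7l1 and Tcf7l2 that have gone under the same names.

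The E-boxes that these factors read can be seen in promoter sequences. The 250 bases upstream of RefSeq transcription starts (GRCm38.p6) were searched on both strands for CAGGTG or CACCTG, the same 6-base site read on either strand and bound by Snail proteins and some E-protein dimers, and for the general E-box CANNTG, which includes that site. Of the 8 genes, 5 matched a promoter entry, with 7 entries between them. Snai1 alone among these 5 genes held CACCTG, beginning 126 bases upstream of its start, and Snail is known to act on its own promoter. Tcf3 and Tcf12 held other E-boxes, and the Twist1 and Twist2 windows held no CANNTG. The first 3 sequences below show these members, and Cldn7 and Krt18 are shown as epithelial genes with the site. Cldn7 had 2 promoter entries, and the entry shown was chosen for holding the site, which the other lacked. Capitals mark CAGGTG or CACCTG, and each sequence runs 5′ to 3′ on the strand of its gene.
Snai1 (chr2:167537945-167538194, + strand): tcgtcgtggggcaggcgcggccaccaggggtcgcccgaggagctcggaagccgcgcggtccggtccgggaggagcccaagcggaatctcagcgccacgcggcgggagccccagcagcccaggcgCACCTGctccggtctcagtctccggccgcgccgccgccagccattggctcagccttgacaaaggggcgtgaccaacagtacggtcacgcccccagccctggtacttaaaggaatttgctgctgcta
Twist1 (chr12:33957421-33957670, + strand): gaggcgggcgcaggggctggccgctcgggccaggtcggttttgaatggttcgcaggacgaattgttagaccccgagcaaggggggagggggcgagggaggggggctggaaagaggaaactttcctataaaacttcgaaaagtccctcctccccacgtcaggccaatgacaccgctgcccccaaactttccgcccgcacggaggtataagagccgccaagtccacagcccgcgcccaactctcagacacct
Twist2 (chr1:91801211-91801460, + strand): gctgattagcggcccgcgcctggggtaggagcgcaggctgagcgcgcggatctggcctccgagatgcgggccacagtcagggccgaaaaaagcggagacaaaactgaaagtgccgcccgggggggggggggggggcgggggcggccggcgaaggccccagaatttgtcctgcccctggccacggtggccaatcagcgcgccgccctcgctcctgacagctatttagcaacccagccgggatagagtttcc
Cldn7 (chr11:69965171-69965420, + strand): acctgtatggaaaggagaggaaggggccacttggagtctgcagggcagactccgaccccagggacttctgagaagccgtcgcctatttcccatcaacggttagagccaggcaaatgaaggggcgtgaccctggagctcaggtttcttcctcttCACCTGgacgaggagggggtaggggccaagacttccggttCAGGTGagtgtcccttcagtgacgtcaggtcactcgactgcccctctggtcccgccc
Krt18 (chr15:102027966-102028215, + strand): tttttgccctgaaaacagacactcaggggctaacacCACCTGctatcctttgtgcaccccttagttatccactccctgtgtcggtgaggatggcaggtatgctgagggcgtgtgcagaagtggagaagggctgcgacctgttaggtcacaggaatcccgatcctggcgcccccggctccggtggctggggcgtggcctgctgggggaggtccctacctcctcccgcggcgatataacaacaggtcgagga

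Among all 32851 promoter entries, 17.2% held CAGGTG or CACCTG and 66.2% held CANNTG in the same window. Of 31 entries for genes listed as repressed by Snail or Twist, 16 (51.6%) held CAGGTG or CACCTG, including entries of Cldn4, Cldn7, Crb3, Epcam, Krt8, Krt18 and Ocln. The 31 entries belong to 21 genes, of which 15 held the site. This list came from general knowledge and may include genes known through such sites, so the share is not an independent test. Of 30 entries for genes listed as induced by them, 3 (10.0%) did. A match describes these letters only, and binding was not measured.

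Across the 4 arrays the median deposited signal, a linear intensity per probe set, lay between 252 and 272. Tests covered the 11963 genes with a mean at or above the 40th percentile of all genes, near a linear signal of 235. Snai1, Snai2, Tcf3, Tcf4 and Tcf12 were tested, and Snai3, Twist1 and Twist2 lay under the filter. Unless stated otherwise, differences are knockout minus control on the log2(signal + 16) scale after quantile normalization, ± SE of limma's fit with n = 2 arrays per group, and calls use an adjusted p of 0.05. Fits without 1 knockout array, with a replicate block, with median centring or on deposited values took the variance from the trend alone. Their p-values may be too small. The labels call the pools biological replicates. The end bud keratins were bright, with Krt8 signals from 12181 to 12680.3 over the 4 arrays and Krt14 from 2205 to 3907. Ovol2 signals were 250.2 and 291 in control arrays against 211 and 204 in knockout arrays, a log2 difference of -0.39 ± 0.16 that did not pass (limma, adjusted p = 0.17) and was -0.26 without control replicate 2. Both knockout signals lay under the filter level of 235, so Ovol2 was tested only through its level in the controls.

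Of the 5 tested members, Tcf4 rose, Snai2 fell and 3 did not pass. Of all 11963 tested genes 10.7% passed, 6.29% as higher and 4.45% as lower in the knockout. The members' median log2 difference was 0.11 over the 5 tested and 0.14 over all 8, against -0.022 over all genes tested. Snai2, Snai3 and Tcf3 had negative differences and the others positive ones, so the values of the group ran in both directions. The knockout arrays lay beyond both control arrays for 4 of the 5 tested members, 2 higher and 2 lower, against 56.3% of all tested genes, 26.4% higher and 29.9% lower.

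**Figure D1:**
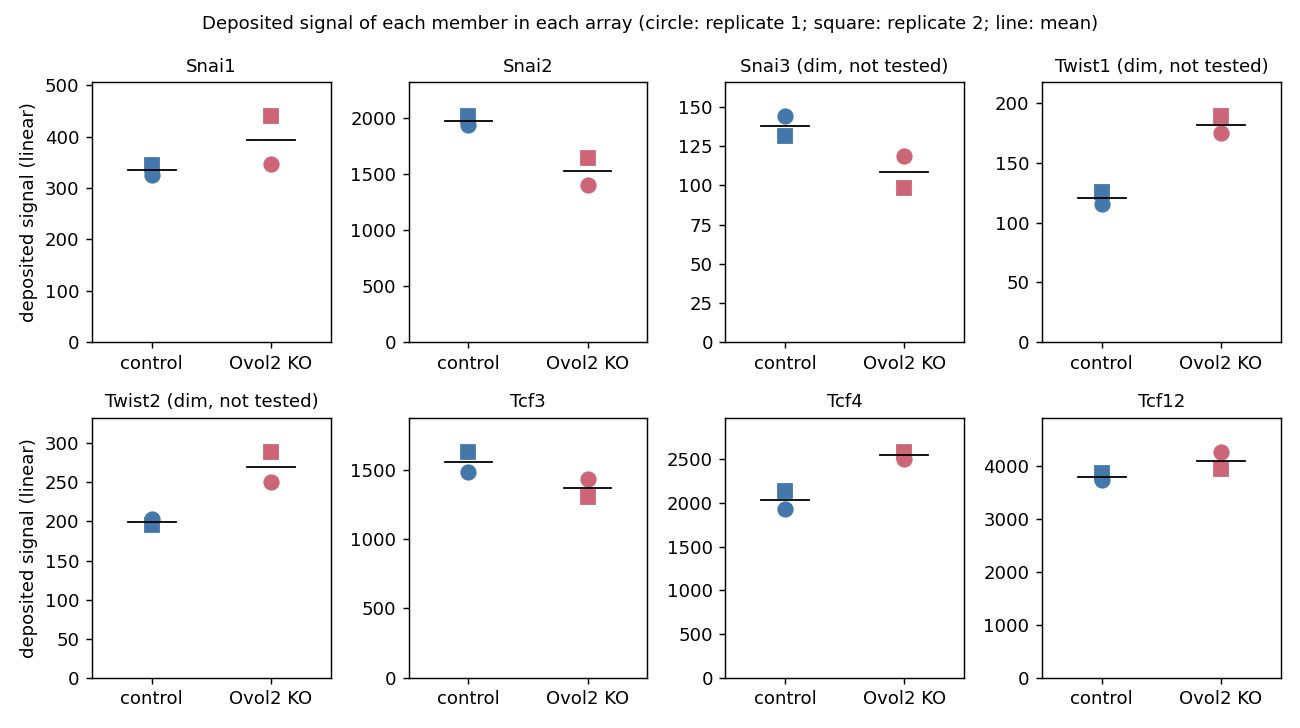
Deposited linear signal (y axis, from 0) of the 8 genes in each array, with circles for replicate 1, squares for replicate 2 and a line at each group's mean. Snai2 is lower and Tcf4, Twist1 and Twist2 are higher in both knockout arrays, while the Snai1 signals of 344 in control replicate 2 and 347 in knockout replicate 1 nearly coincide.

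Snai2, which encodes the repressor Slug, had signals of 1937 and 2018 in control arrays against 1404 and 1649 in knockout arrays. Both knockout arrays lay below both controls, and the controls differed by 0.017 on the normalized log2 scale against 0.29 between the knockouts. The gene fell 1.31-fold (log2 difference -0.39 ± 0.09, 95% CI -0.59 to -0.20; limma, adjusted p = 0.0213). Among tested genes, 7.39% had a larger difference in either direction. Without knockout replicate 1 the difference was -0.24 and without knockout replicate 2 it was -0.54. The call was lost without control replicate 1 and with a variance prior that has no trend (limma, adjusted p = 0.123). That was the highest adjusted p of 15 alternatives.

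Snai1, the family member most studied as a repressor of Cdh1, read 326 and 344 in control arrays against 347 and 439.8 in knockout arrays. After normalization its log2 values were 8.43 and 8.53 in control arrays against 8.48 and 8.82 in knockout arrays, so the groups overlapped. The log2 difference of 0.17 ± 0.14 did not pass (95% CI -0.14 to 0.48; limma, adjusted p = 0.49). Without knockout replicate 2 the difference was 0.0041. The interval spans a rise of up to 0.48 and does not show that Snai1 was the same in both groups. Snai3, the least studied Snail gene, was dim, with signals of 144 and 132 in control arrays against 119 and 98.0 in knockout arrays. Its log2 difference of -0.31 was not tested under the filter, and in the fit with no filter it did not pass (95% CI -0.64 to 0.019; limma, adjusted p = 0.303). Leaving out knockout replicate 1 gave -0.47, and leaving out knockout replicate 2 gave -0.15.

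Twist1 had the largest log2 difference of the 8 genes, but at a signal under the filter. Its signals were 116 and 126 in control arrays against 175 and 189 in knockout arrays, and the groups did not overlap. The log2 difference was 0.53, a fold of 1.44, and it stayed between 0.40 and 0.65 with each array left out in turn. In the fit with no filter the 95% CI ran from 0.22 to 0.83 and the adjusted p of limma was 0.0532. Twist2 read 203 and 195 in control arrays against 251 and 289 in knockout arrays, again without overlap. Its log2 difference was 0.38, with a 95% CI from 0.11 to 0.65 and an adjusted p of 0.11 in limma's fit with no filter. The Twist genes are known from mesenchyme of many tissues, and at these signals a fold against the controls may understate a change because background could not be told from signal.

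**Figure D2:**
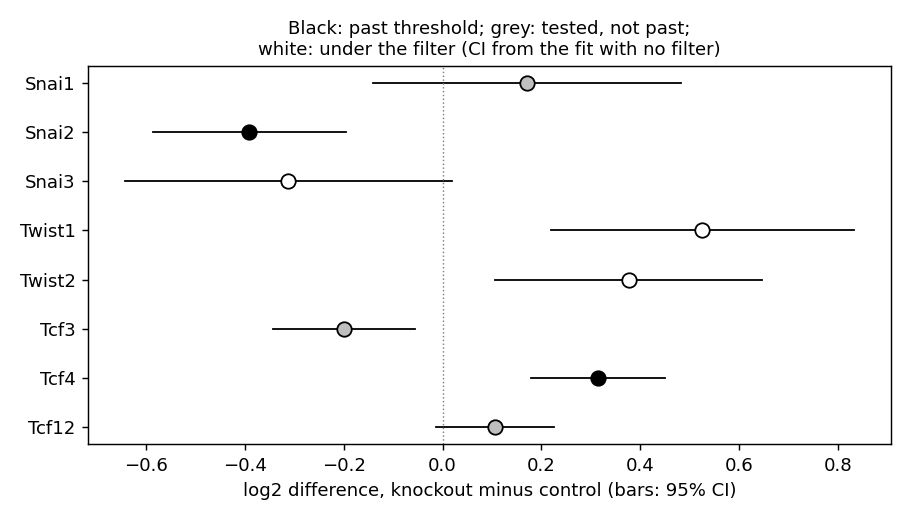
Log2 difference of each gene (x axis, knockout minus control) with its 95% confidence interval. The intervals of Snai2 (-0.59 to -0.20) and Tcf4 (0.18 to 0.45) belong to genes past the threshold, shown in black, and the white points mark Snai3, Twist1 and Twist2, whose intervals come from the fit with no filter.

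The 3 E-protein genes all lay well above the filter level, and their differences did not share a sign. Tcf4 read 1932 and 2141 in control arrays against 2507 and 2588 in knockout arrays, without overlap. It rose 1.24-fold (log2 difference 0.31 ± 0.06, 95% CI 0.18 to 0.45; limma, adjusted p = 0.0115). The call was lost without control replicate 1 (0.26, adjusted p = 0.0688), with no variance trend (adjusted p = 0.0936) and with median centring of the arrays (adjusted p = 0.164); over 15 alternatives it went from 8.3e-07 to 0.164.

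Tcf3 read 1486 and 1634 in control arrays against 1438 and 1308 in knockout arrays, with both knockout arrays lower. Its log2 difference of -0.20 ± 0.06 did not pass (95% CI -0.34 to -0.055; limma, adjusted p = 0.0816). The difference was -0.23 without knockout replicate 1. Over 15 alternatives the adjusted p of Tcf3 in limma went from 0.0172, with the replicate block, to 0.423. Tcf12 read 3724 and 3861 in control arrays against 4266 and 3929.9 in knockout arrays, so knockout replicate 2 lay close above the controls. Its log2 difference of 0.11 ± 0.05 did not pass (95% CI -0.012 to 0.23; limma, adjusted p = 0.248), and 51.1% of tested genes differed by more. It was 0.058 without knockout replicate 1, 0.16 without knockout replicate 2 and 0.062 with median centring. The difference between the 3 genes' changes was not tested.

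**Figure D3:**
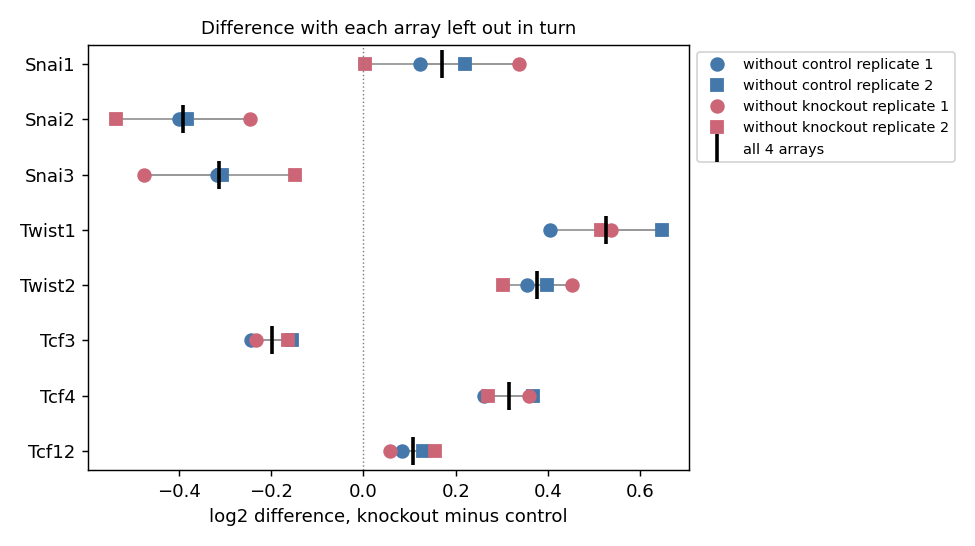
Log2 difference of each gene (x axis, knockout minus control) with all 4 arrays (black bar) and with each array left out in turn. No gene changed sign, Snai1 came closest to 0 at 0.0041 without knockout replicate 2, and Snai2 ranged from -0.54 to -0.24.

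Of the 4 Id genes, whose products hold E proteins off DNA, 2 rose and 2 did not pass. Id1 read 271 and 292 in control arrays against 402 and 502 in knockout arrays, and it rose 1.53-fold (log2 difference 0.61 ± 0.14; limma, adjusted p = 0.0245). Id2 read 3015 and 2968 in control arrays against 3972 and 4198 in knockout arrays, and it rose 1.36-fold (log2 difference 0.44 ± 0.05; limma, adjusted p = 0.00151). For both genes each knockout array lay above both controls. Id3 differed by -0.29 ± 0.12 and Id4 by -0.10 ± 0.08, and neither passed with all arrays. Id3 passed without knockout replicate 1 (-0.49, adjusted p = 1.2e-05 in limma) and with the replicate block (adjusted p = 0.00488), and it was -0.092 without knockout replicate 2. Id4 was -0.0047 without control replicate 1 and -0.20 without control replicate 2. The calls of Id1 and Id2 were both lost with no variance trend, and that of Id1 also without control replicate 1 or knockout replicate 2. The adjusted p ranged from 7.7e-05 to 0.138 for Id1 over 14 alternatives, and from 1.7e-15 to 0.0584 for Id2 over 15.

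Other bHLH factors that pair with E proteins were mostly dim. Of 29 on the array 7 were tested and 0 passed limma's threshold, with 2 at an unadjusted p under 0.05. Their median log2 difference was -0.13. Of 10 tested EMT transcription factors outside the Snail and Twist families, 3 rose and 7 did not pass. Among all tested genes 6.29% passed as higher. The median log2 difference of these 10 factors was -0.046, and 5 of them lay below 0. At an unadjusted p under 0.05 in limma, 3 were higher and 3 lower. The zinc finger repressor gene Zeb1 read 149 and 217 in control arrays against 754 and 817 in knockout arrays. Both control signals lay under the filter level of 235, so Zeb1 was tested only through its level in the knockouts. The log2 difference of 2.01 ± 0.18 stands beside 0.70 ± 0.16 for its relative Zeb2 and 0.66 ± 0.14 for the homeobox gene Prrx1. The calls of Zeb2 and Prrx1 were lost without control replicate 1 and with no variance trend.

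Genes listed as repressed by Snail or Twist were called at a share near that of all tested genes over both directions, but every call was lower. Of 25 tested, 3 fell, 0 rose and 22 did not pass, so 12% were called against 10.7% of all tested genes. By direction, 4.45% of all tested genes passed as lower and 6.29% as higher. At an unadjusted p under 0.05 in limma, 9 were lower and 3 higher. Both knockout arrays lay below both controls for 14 and above both for 6, against 29.9% and 26.4% of all tested genes. Their median log2 difference was -0.087. The cyclin gene Ccnd2 fell by 0.57 ± 0.09 on the log2 scale, the integrin gene Itgb4 by 0.26 ± 0.07 and the desmosomal gene Dsp by 0.23 ± 0.06. Ccnd2 lost its call with no variance trend, Dsp in 4 settings and Itgb4 in 7. Cdh1 read 5953 and 6210.4 in control arrays against 5930.2 and 5442 in knockout arrays, a log2 difference of -0.11 ± 0.05 that did not pass (limma, adjusted p = 0.224). It was -0.064 without knockout replicate 2, -0.072 without control replicate 2 and -0.16 without knockout replicate 1. The claudin gene Cldn7, with 2 of the Snail sites in the promoter entry shown above, differed by -0.21 ± 0.06 (limma, adjusted p = 0.0533). Cldn1 differed by -0.46 ± 0.14 (limma, adjusted p = 0.0601). Neither passed. Without knockout replicate 1 Cldn1 was -0.72 and Cldn7 was -0.27, against -0.21 and -0.15 without knockout replicate 2. The keratin gene Krt18, also shown with the site, differed by 0.08 ± 0.04 and did not pass.

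Many genes listed as induced by Snail or Twist rose. Of 25 tested, 15 rose, 1 fell and 9 did not pass, with a median log2 difference of 0.36. Besides Zeb1, the growth factor receptor gene Pdgfra rose by 1.62 ± 0.11 on the log2 scale, the metalloprotease gene Mmp2 by 1.61 ± 0.10, the matricellular gene Postn by 1.48 ± 0.06, the fibronectin gene Fn1 by 1.01 ± 0.10 and the intermediate filament gene Vim by 0.45 ± 0.08. The N-cadherin gene Cdh2 fell by 0.31 ± 0.08, a call lost in 7 settings, and Vim did not pass with no variance trend. Of these 25 genes 4 are also in the fibroblast marker list and all 4 rose, and of the other 21 genes 11 rose and 1 fell, with a median of 0.29. The fibroblast list does not hold Zeb1, Mmp2, Fn1 or Vim, so the split cannot set fibroblast signal apart. The source of these rises was not tested.

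**Figure D4:**
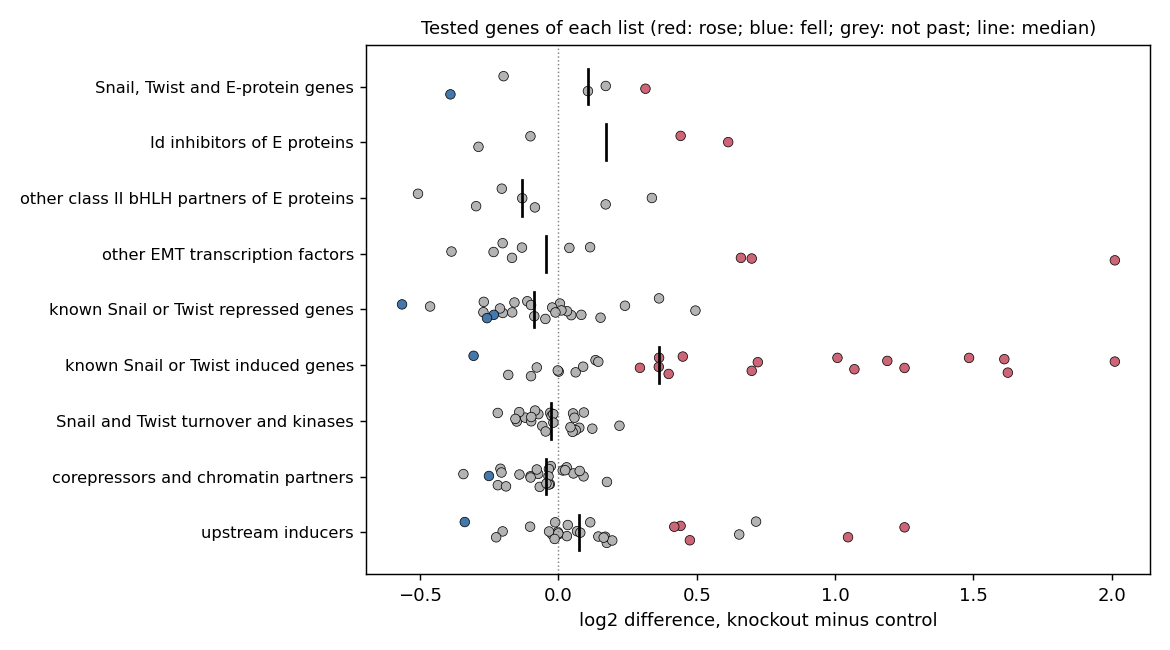
Log2 difference (x axis, knockout minus control) of the tested genes of 9 lists, with red for genes that rose, blue for genes that fell, grey for genes not past the threshold and a black line at the median. Among these lists, which leave out the cell markers, the induced genes have the highest median, 0.36, and the repressed genes, turnover genes and corepressors have medians from -0.087 to -0.028.

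Among genes for the regulation of Snail and Twist, calls lay mostly with the upstream inducers. Snail proteins are turned over quickly through kinases and ubiquitin ligases. Of 24 tested genes for this turnover, such as Gsk3b, Btrc and Fbxl14, 0 passed limma's threshold, with 3 at an unadjusted p under 0.05, all lower. Of 25 corepressors and chromatin partners, the methyltransferase gene Ezh2 fell (log2 difference -0.25 ± 0.05) and 24 did not pass. Of 28 upstream inducers 5 rose, 1 fell and 22 did not pass, so 21.4% were called against 10.7% of all tested genes. Pdgfrb rose by 1.25 ± 0.15 on the log2 scale, the growth factor gene Fgf2 by 1.05 ± 0.13, Tgfb3 by 0.47 ± 0.08 and the hypoxia factor gene Epas1 by 0.44 ± 0.11, while Bmp7 fell by 0.34 ± 0.06. Fgf2 read 211 and 220 in control arrays, under the filter level of 235, against 465 and 483 in knockout arrays, so it was tested only through its level in the knockouts. Epas1 ranged from 0.28 without knockout replicate 2 to 0.60 without knockout replicate 1. With no variance trend, Ezh2, Tgfb3, Epas1 and Bmp7 did not pass, nor did Ezh2 with median centring or Epas1 without control replicate 1 or with a robust prior.

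Markers of other cells differed between the same arrays, and their part in the values of the Snail, Twist and E-protein genes was not tested. In bulk RNA, fewer cells of a type and less RNA per cell cannot be told apart. Of 15 tested fibroblast markers, 13 rose and 2 did not pass, and the summed signal of the 17 on the array was 13676 to 14478 in the controls and 28966 to 34780 in the knockouts. The 12 endothelial markers summed to 5863 to 6929 in the controls and 8292 to 9820 in the knockouts, with 5 that rose and 7 that did not pass. The fibroblast marker Lama2 and the endothelial marker Kdr are among those that rose, and both had control signals under the filter level, so they were tested only through the knockouts. The 14 adipocyte markers on the array summed to 8742 to 9503 in the controls and 11726 to 12331 in the knockouts. Of 9 tested, 6 rose and 3 did not pass. The direction of the fibroblast, endothelial and adipocyte lists was that of Twist1, Twist2 and Tcf4, but it was not particular to these lists. Basal and luminal sums, given below, were also higher in both knockout arrays. The 8 nerve and Schwann markers on the array summed to 5396.5 to 5690.1 in the controls and 7189.4 to 8408.4 in the knockouts. Of 7 tested, 2 rose, 1 fell and 4 did not pass. B-cell markers, of interest because Tcf3 and Tcf4 act in B cells, were 11 on the array and summed to 2558 to 3302 in the controls and 1882 to 2036 in the knockouts. Of 4 tested, Cd79b fell and Ebf1, which is not limited to B cells, rose. Cd79b read 185 and 135 in knockout arrays, under the filter level, and was tested only through its level in the controls. The dim defining markers Cd79a and Ms4a1 read 36.4 to 42.4 in the knockouts against 143 to 239 in the controls. Tcf4 is a defining factor of plasmacytoid dendritic cells, whose 8 markers on the array summed to 2112 to 2260 in the controls and 1991 to 2031 in the knockouts. The 4 tested all had log2 differences below 0, with a median of -0.15, and 0 passed limma's threshold, with 1 at an unadjusted p under 0.05. For 3 of them both knockout arrays lay below both controls in normalized values, against 29.9% of all tested genes. Their defining marker Siglech was dim at 123 to 145 in all arrays. Of 8 tested macrophage markers 1 rose and 1 fell, and of 4 tested skeletal muscle and 4 epidermal markers 0 passed limma's threshold, with 0 at an unadjusted p under 0.05.

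The basal markers, beside which Snai2 is read as a basal gene, went both ways. Among the 19 tested there were 9 that rose and 3 that fell, and their summed signal was 42074 to 45077 in the controls and 49458 to 56668 in the knockouts. Bright genes weigh most in this sum. Acta2 read 8984 and 9143 in control arrays against 10037 and 10724 in knockout arrays, and Vim 4418 and 4630 against 5707 and 6820. Besides Vim and the receptor genes Lgr5 (1.08 ± 0.15) and Egfr (0.42 ± 0.08, log2), those that rose were genes of the contractile apparatus of myoepithelial cells or its control. The oxytocin receptor gene Oxtr rose by 0.94 ± 0.15, Mylk by 0.74 ± 0.13, Myh11 by 0.74 ± 0.12, Cnn1 by 0.72 ± 0.10, Tagln by 0.62 ± 0.06 and Acta2 by 0.21 ± 0.05 (log2). Those that fell were Itgb4, the hemidesmosome gene Col17a1, by 0.52 ± 0.08, and Trp63, a transcription factor gene of basal cells, by 0.36 ± 0.06. Of these 12 genes Tagln alone passed in every setting run for it. Each of the others lost its call with no variance trend. Lgr5, Oxtr, Mylk, Myh11 and Cnn1 also did so with a robust prior, and Egfr, Trp63 and Acta2 with median centring and without control replicate 1. Acta2 did not pass without knockout replicate 2 either. Krt5 differed by -0.02 ± 0.11, with a sign that turned without control replicate 2 or knockout replicate 1. Krt14 signals were 2205 and 2556 in control arrays against 2660 and 3907 in knockout arrays, without overlap. The Krt14 log2 difference of 0.43 ± 0.15 did not pass (limma, adjusted p = 0.0993). Dropping single arrays moved it between 0.14 and 0.72, with the low end when knockout replicate 2 was dropped. Krt14 passed on deposited values, with median centring and with the replicate block, where p-values may be too small. Of 14 cell-cycle genes, 13 fell and 1 did not pass. Luminal markers summed to 69178 to 71046 in the controls and 73085 to 74678 in the knockouts, with 4 of 14 that rose.

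**Figure D5:**
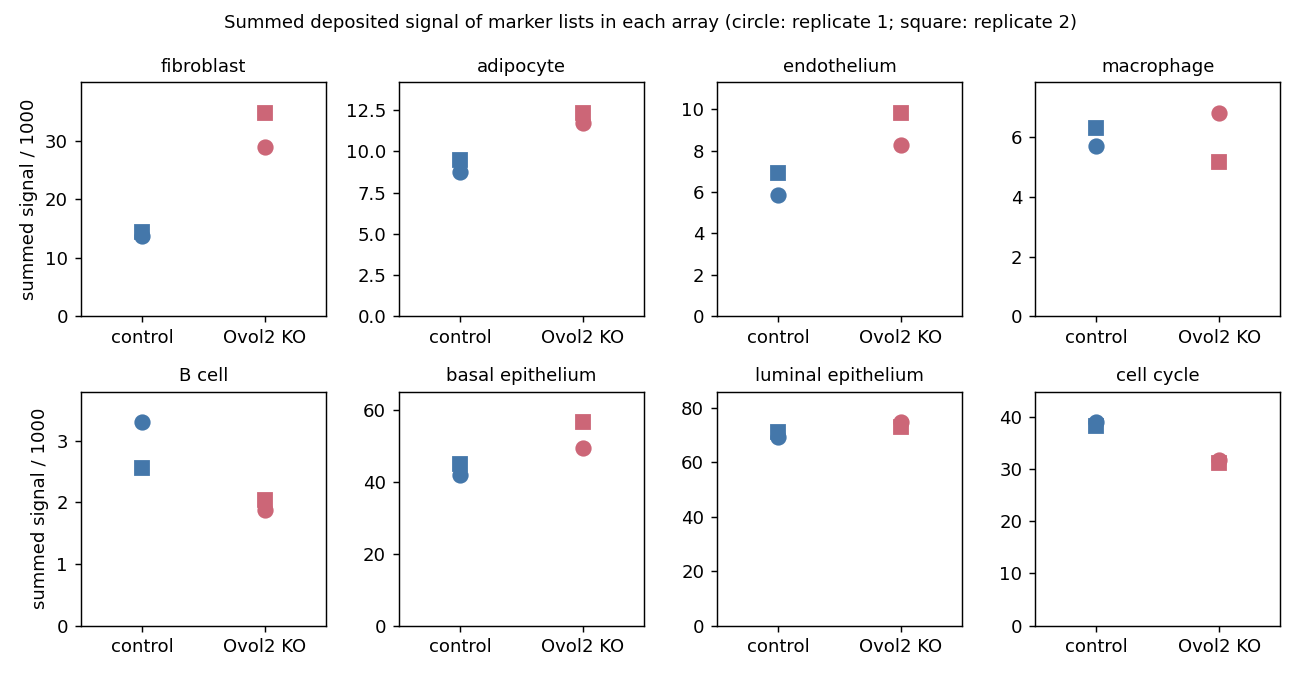
Summed deposited signal divided by 1000 (y axis, from 0) of 8 marker lists in each array, with circles for replicate 1 and squares for replicate 2. Fibroblast, adipocyte, endothelial, basal and luminal sums are higher and cell-cycle and B-cell sums lower in both knockout arrays, while macrophage sums overlap.

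The genes closest in pattern were taken by the Euclidean distance between mean-centred log2 profiles over the 4 arrays, among tested genes. Closest to Snai2 were E2f1 (distance 0.060), Pkig (0.10) and Slfn9 (0.11), with 118 genes within 0.2. Closest to Tcf4 were Bbs9 (0.014), Fstl3 (0.018) and Znrf1 (0.020), with 1423 genes within 0.2. Closest to Twist1 were Tcp11l2 (0.018), Abcc5 (0.024) and Glb1l (0.029), with 301 genes within 0.2. With 4 arrays many genes share a profile, so these neighbours describe the arrays only.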

How the data were processed

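The deposited table held 1 linear signal intensity per probe set and array for 35556 probe sets. Per the submitters' processing notes, the authors used Affymetrix Expression Console 1.1.1 and PLIER 2.0. What the sources used here do not give is the background correction, scaling, offset and genome build, and dim probe sets could not be told from background. Names came from the platform annotation: 21789 probe sets had 1 symbol, 1621 several and 12146 were not listed. The probe set with the highest mean stood for its gene.

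Values were taken as log2(signal + 16), quantile normalized over all probe sets, filtered at the 40th percentile of the gene means (log2 7.97), and compared in limma 3.58.1 by lmFit and eBayes (trend = TRUE) (R 4.3.3), two-sided, with Benjamini-Hochberg adjustment over 11963 genes. The 8 genes, the gene lists (from general knowledge), the rule for named genes and the tests were chosen with earlier results of these data known. Named were all 8 genes, Ovol2, up to 4 called genes per direction and list with the largest differences, 5 fixed targets and 3 nearest genes for each of Snai2, Tcf4 and Twist1. Chosen after their values were seen were Id3, Id4, Cldn7, Krt18, Lama2, Kdr, Siglech and the B-cell and basal markers named, which include each called basal marker. The fit was tested on simulated data. Alternatives changed the normalization, offset, filter, variance prior, probe-set rule, pairing and arrays used. Precision is limited by 2 arrays per group. Promoter sequences are from RefSeq (GRCm38.p6).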

Additional observations from a re-analysis of the deposited data

How the results depend on the processing

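With median centring 753 genes passed, 480 higher and 273 lower, and of the 8 genes 1 passed, with 0 higher (2 at an unadjusted p under 0.05 in limma). With no variance trend 188 genes passed, 143 higher and 45 lower, and of the 8 genes 0 passed, 0 higher and 0 lower (limma, 3 at an unadjusted p under 0.05). Leaving out each array in turn gave 476 to 2347 genes, 320 to 1168 higher and 156 to 1179 lower, and 0 to 3 of the 8 genes, 0 to 1 higher and 0 to 2 lower. Without control replicate 1 the count was 476 genes and 0 of the 8 (3 at an unadjusted p under 0.05), and without knockout replicate 1 it was 2347. In these fits the lone array is assumed to vary like the other group. The deviations of same-numbered arrays correlated at -0.196 over 11963 genes. With 2 arrays per group this cannot show whether same-numbered pools were paired, and the labels do not say. A replicate block gave 2246 genes, 1170 higher and 1076 lower, and 2 of the 8 genes lower, with Tcf3 added, and the crossed pairing, chosen after seeing the data, gave 1203 genes and 2 of the 8. The block, median centring, the values as deposited and the fits without 1 knockout array took the variance as known from the trend, so their p-values may be too small. Krt5 ranged from -0.22 to 0.18 with each array left out, and its sign turned to 0.039 without control replicate 2 and 0.18 without knockout replicate 1, and that of Krt8 turned to -0.061 with median centring and -0.013 in the values as deposited. None of the 8 genes changed sign in any setting run, and counts in the other settings were within 1.5 times. Snai3, Twist1 and Twist2 were tested only with no filter.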
